A study of Mus musculus with 16 samples.

Results

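Cytochrome P450 genes were described in kidney cortex of control and Degs1-deleted mice after a sham operation or ischaemia. The members were the protein-coding genes of the count table with a mouse symbol of Cyp followed by a digit, with at least 10 reads in 4 or more of the 16 libraries. Cyp4a10, Cyp4a14, Cyp51, Cyp27b1 and Cyp24a1 were left out by name. Of 100 protein-coding Cyp genes in the table, 48 passed the read rule, and 43 remained after those 5 were removed. They belonged to 10 families: 21 to family 2, 11 to family 4, 3 to family 26, 2 to family 1, and 1 each to families 3, 7, 20, 27, 39 and 46.

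Cytochrome P450 enzymes are haem proteins that insert an oxygen atom into lipids, steroids, vitamins and foreign compounds. Most sit in the endoplasmic reticulum and take electrons from P450 oxidoreductase, and a few sit in mitochondria and take them from ferredoxin. The kidney cortex, above all its proximal tubule, makes P450 enzymes that turn arachidonic acid into epoxyeicosatrienoic and hydroxyeicosatetraenoic acids, lipids known for effects on blood vessels and salt transport.

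The mice were males on a C57Bl/6J background. Controls were Degs1fl/fl littermates (fl/fl), and Degs1iGKO mice (iGKO) carried the same floxed alleles with Rosa26-CreERT2, a tamoxifen-activated Cre recombinase that acts in all tissues, so the deletion was not limited to the tubule. Degs1 encodes dihydroceramide desaturase, which makes ceramide from dihydroceramide. Both genotypes received 3 mg tamoxifen into the peritoneum on 5 days at 9 weeks of age and were operated at 12 weeks. In ischaemia-reperfusion injury (IRI) the vessels of both kidneys were clamped and then released. The protocol in the labels gives 28 min of clamping as the default and up to 24 h of reperfusion, without the times of single samples, and sham mice had the same surgery without clamps. Each genotype had 4 sham and 4 IRI samples, which makes 4 groups and 16 samples. A library is named by its group and replicate number, as in fl/fl IRI 3. The labels do not state that each sample came from its own animal, so p-values measure the spread between these samples.

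Total counts ranged from 12704273 to 18816343 per library. RNA of the targeted gene Degs1 was lower in every iGKO library (40.2 to 71.7 CPM, counts scaled to library size) than in every fl/fl library (84.0 to 133 CPM). Defining proximal tubule genes were abundant in all libraries, with the sum of 20 markers between 11409 and 39948 CPM. Several libraries stood apart from their group. The summed level of 5 genes of injured tubule (Havcr1, Lcn2, Krt20, Vcam1 and Sox9) was 205 CPM in fl/fl IRI 1, whereas the remaining libraries of its group had 1707 to 2705 CPM. Mitochondrially encoded genes took 0.443% of counts in iGKO sham 4 and 2.05% to 6.48% elsewhere, and fl/fl IRI 3 held transcripts abundant in liver, described below with Cyp2c29. Counts of called genes are therefore given with and without these libraries where they differ.

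Per length of exon, 3 members led in control kidneys. In fl/fl sham, Cyp4b1, which hydroxylates fatty acids and activates plant toxins, had 752 CPM per kilobase of merged exon. Cyp2j5, an arachidonic acid epoxygenase abundant in mouse kidney, had 442 and Cyp2e1, the ethanol-oxidising P450, had 374 on the same scale. Cyp4a31 followed at 179 CPM per kilobase, Cyp2a4 at 154 and Cyp2a5 at 86.9. On this scale the fl/fl sham libraries of Cyp4b1 overlapped those of Cyp2j5, and those of Cyp2j5 overlapped those of Cyp2e1, so the order within these 3 is not beyond their spread. All of them lay above Cyp4a31, whose libraries overlapped those of Cyp2a4, as those of Cyp2a4 did with Cyp2a5. All members together summed to 5586 ± 841 CPM in fl/fl sham and 5421 ± 568 CPM in iGKO sham (SD, n = 4 each). After IRI the fl/fl libraries summed to 4073 ± 1267 CPM and the iGKO libraries to 3722 ± 537 CPM. The lowest value of all, 2203 CPM, was that of fl/fl IRI 3, while fl/fl IRI 1 and fl/fl IRI 4, at 4840 and 4870 CPM, lay within the range of fl/fl sham, 4585 to 6488 CPM.

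**Figure D1:**
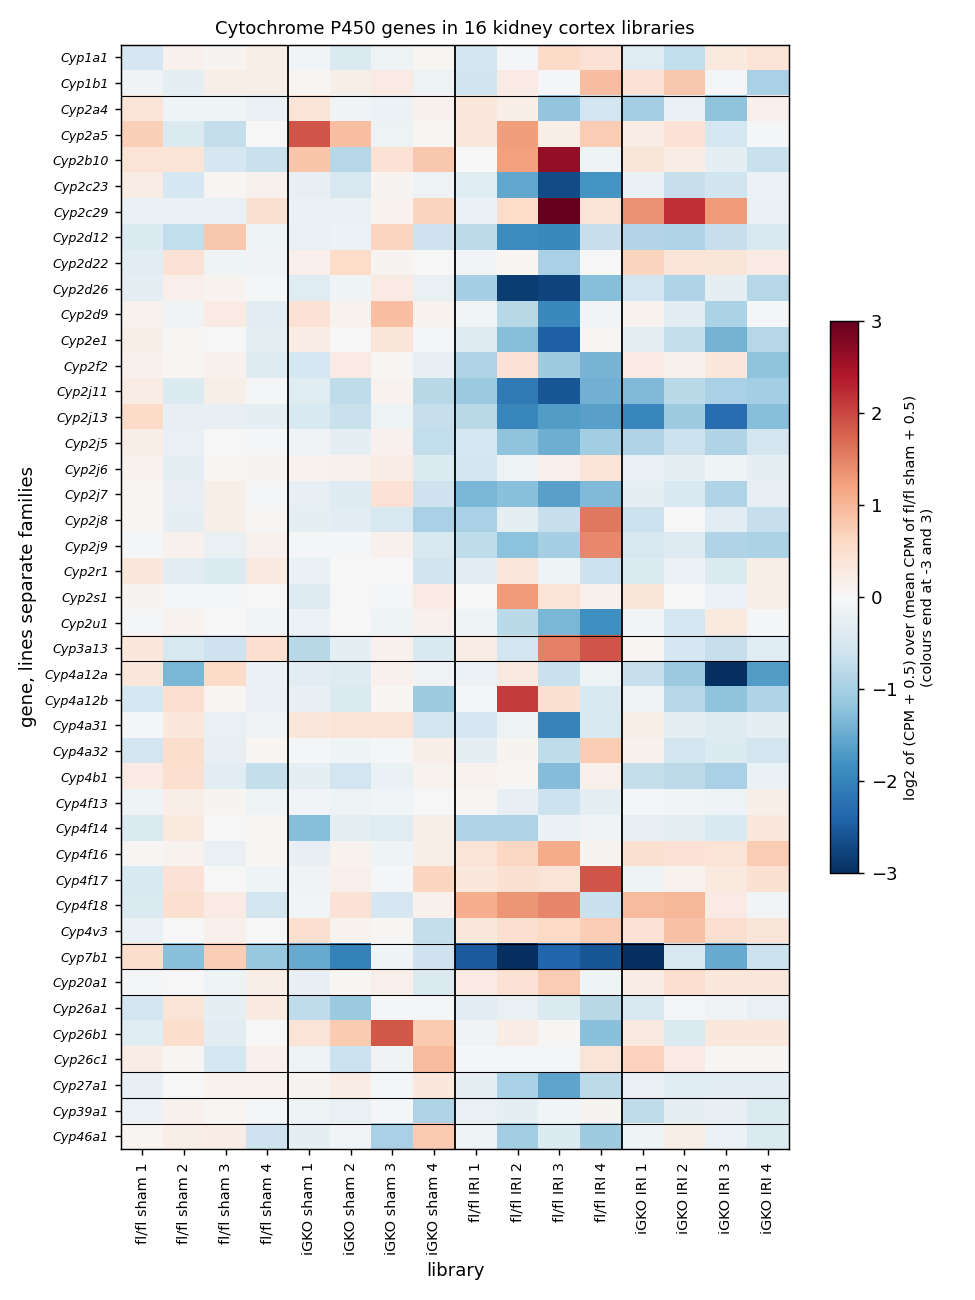
Level of each of the 43 P450 genes (vertical axis, ordered by family) in each of the 16 libraries (horizontal axis), as log2 of CPM plus 0.5 over the mean CPM of fl/fl sham plus 0.5, with colours ending at -3 and 3. Blue cells gather in the fl/fl IRI libraries at Cyp2c23, Cyp2d12, Cyp2d26, Cyp2j11, Cyp2j13, Cyp2j7 and Cyp7b1, while the rows of family 4 show no common colour.

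IRI against sham in fl/fl mice gave the response of control kidneys. In this comparison 10 P450 genes fell: Cyp2j11, Cyp2j7, Cyp2j13 and Cyp2j5, Cyp2d26 and Cyp2d12, Cyp2c23, Cyp2u1, Cyp7b1 and Cyp27a1. One gene, Cyp2c29, rose, and that call rested on a single library. Apart from Cyp7b1 and Cyp27a1 these genes belong to family 2. The genes that fell have roles in the epoxidation and hydroxylation of fatty acids, in sterol metabolism and in the oxidation of drugs and steroids.

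Differences were tested with edgeR's quasi-likelihood test on the counts, with Benjamini-Hochberg adjustment over all 17972 genes tested, and a gene was called at an adjusted p under 0.05. Of the 43 members 41 entered the test, since Cyp1a1 and Cyp26a1 had too few reads for the low-count filter. The 10 members called lower were 24.4% of the 41, against 7.01% of all genes tested in that direction. The 1 member called higher was 2.44%, against 8.46% of all genes. The median log2 fold change of the 41 was -0.16, with 17 above 0 and 24 below, beside a median of 0.009 over all genes. In 8 of the 41 members (19.5%) every fl/fl IRI library lay below every fl/fl sham library, beside 9.82% of all genes. These 8 were the genes that fell, apart from Cyp2c23 and Cyp2d12. Cyp2j11, Cyp2j7, Cyp2j13, Cyp2j5, Cyp2d26, Cyp7b1 and Cyp27a1 were called lower in each of the 16 fits that left out 1 library. Leaving out both fl/fl IRI 3 and fl/fl IRI 4 left 2 libraries in that group. In that fit 4 members were called lower, Cyp2d26, Cyp2j7, Cyp2j11 and Cyp2j9, with 84 genes lower and 301 higher in all. Without fl/fl IRI 1 and iGKO sham 4 the number of members called lower was 11, with Cyp4f13 added. That fit called 2583 genes lower and 2925 higher in all.

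**Figure D2:**
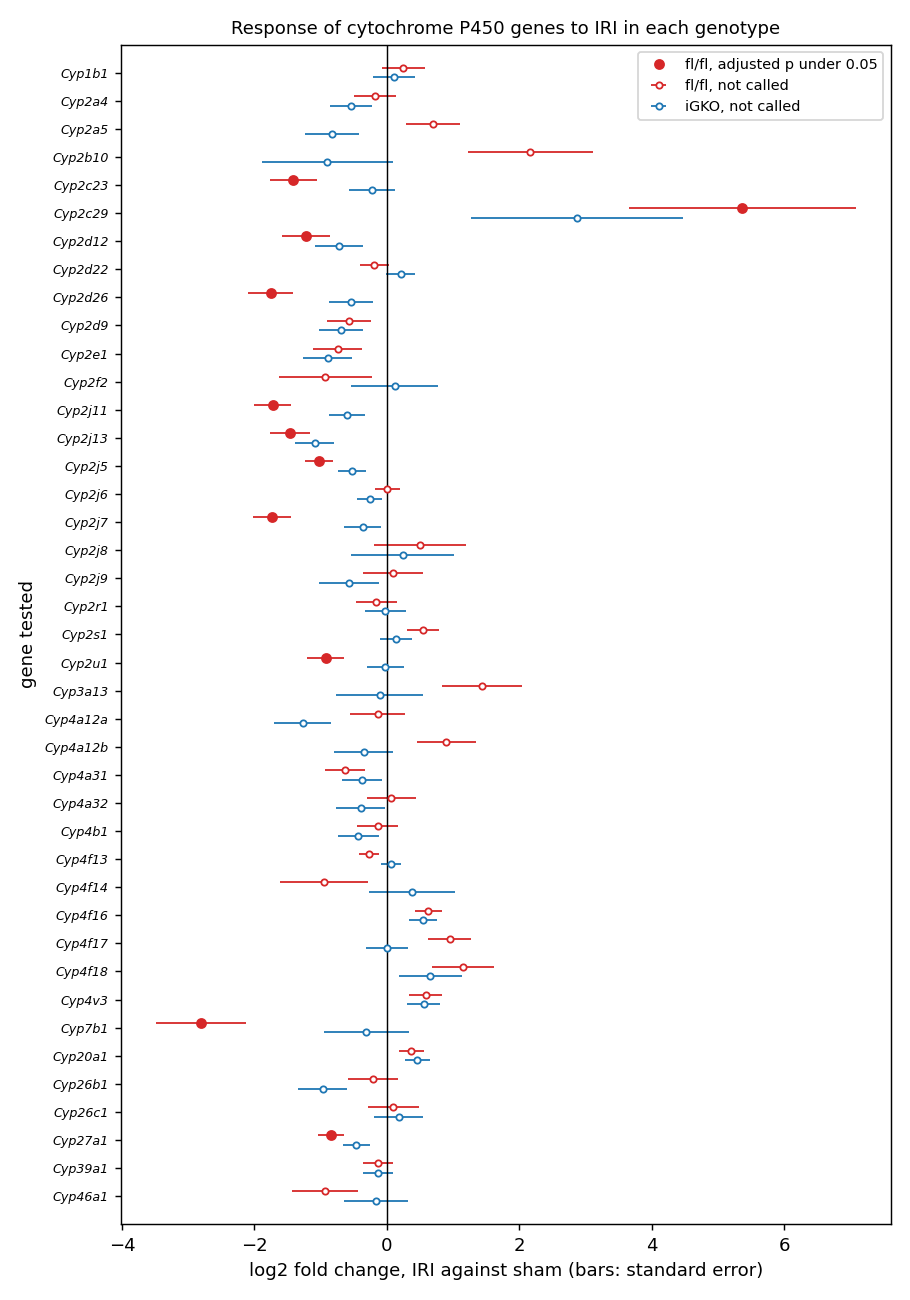
Log2 fold change of IRI against sham (horizontal axis, bars are the standard error) for the 41 tested P450 genes (vertical axis) in fl/fl (red) and iGKO (blue), with filled points for an adjusted p under 0.05. The filled points are 11 and all belong to fl/fl, 10 of them left of 0, while no gene is called in iGKO.

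The Cyp2j genes gave 4 of the 10 falls. Cyp2j enzymes are mainly known as epoxygenases of arachidonic and linoleic acid. The genes lie side by side on chromosome 4, all on the minus strand, with no other protein-coding gene between them in the GENCODE annotation, in the order Cyp2j13, Cyp2j12, Cyp2j7, Cyp2j11, Cyp2j8, Cyp2j6, Cyp2j9 and Cyp2j5. Cyp2j12 did not reach the read rule. Some neighbours in this cluster were called and others were not. The 100 bases before the RefSeq start are therefore shown for the Cyp2j members with a RefSeq entry. Those of Cyp2d26, another gene that fell, are shown beside them. Cyp2j7 fell too but had no RefSeq entry, so its window is missing from the comparison. They are given 5′ to 3′ on the gene's own strand, from RefSeq on GRCm38.p6, and Cyp2j13 is shown for the first of its 2 listed starts. Capitals mark TATAA (the TATA box core), GCGTG (the core of the xenobiotic response element) and GTTAAT (a core of the HNF1 site), each on either strand.
Cyp2j13, chr4:96077541-96077640, minus strand: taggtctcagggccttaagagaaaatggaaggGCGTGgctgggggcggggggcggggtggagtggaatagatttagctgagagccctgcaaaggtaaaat
Cyp2j11, chr4:96348681-96348780, minus strand: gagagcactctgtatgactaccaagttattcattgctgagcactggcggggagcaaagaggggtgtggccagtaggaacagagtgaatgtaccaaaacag
Cyp2j8, chr4:96507398-96507497, minus strand: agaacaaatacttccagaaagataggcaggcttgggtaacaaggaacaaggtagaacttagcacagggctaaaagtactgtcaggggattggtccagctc
Cyp2j6, chr4:96553652-96553751, minus strand: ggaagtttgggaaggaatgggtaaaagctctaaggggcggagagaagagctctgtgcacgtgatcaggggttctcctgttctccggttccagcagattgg
Cyp2j9, chr4:96591486-96591585, minus strand: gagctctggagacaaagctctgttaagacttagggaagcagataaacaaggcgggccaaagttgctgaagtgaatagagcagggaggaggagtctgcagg
Cyp2j5, chr4:96664120-96664219, minus strand: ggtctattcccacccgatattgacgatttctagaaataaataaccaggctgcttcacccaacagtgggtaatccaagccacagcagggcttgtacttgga
Cyp2d26, chr15:82794246-82794345, minus strand: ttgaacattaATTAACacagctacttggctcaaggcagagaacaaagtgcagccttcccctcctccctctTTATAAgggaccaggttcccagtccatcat

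The Cyp2j windows differed from each other more than the coding sequences do. Pairwise identity of the windows was 46.9% to 67.5% over the 79 to 96 bases aligned without a gap. For the longest open reading frames of the 7 Cyp2j members it was 77.5% to 88.9%. No identity of unrelated windows is given beside these values, so they do not show whether the windows are related. The Cyp2d26 window held a TATA box core and an HNF1 core, whereas the only match in the 6 Cyp2j windows was GCGTG in Cyp2j13. In the whole 250 bases before the start, TATAA was present in 12 of the 32 members with a RefSeq entry (37.5%) and in 25.8% of 27025 genes. GCGTG was present in 10 of 32 (31.2%) against 30.9% of genes, and GTTAAT in 5 of 32 (15.6%) against 7.49%. Within the 250 bases, Cyp2j5 also held TATAA and Cyp2j9 also held GCGTG, beyond the windows shown. Another motif, CAAAGTCCA of the HNF4 site, was present in 0 of 32 and in 0.451% of genes. The search covered both strands, and none of these motifs is contained in another. A match describes the letters only and is not evidence of binding.

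Cyp2j5 was the most abundant of the subfamily. It stood at 1182, 893, 1053 and 1017 CPM in fl/fl sham 1 to 4 and at 716, 449, 373 and 502 CPM in fl/fl IRI 1 to 4. The groups did not overlap, and the log2 fold change was -1.02 ± 0.21 (SE, n = 4 each, edgeR adjusted p = 0.0056). In iGKO it stood at 960.4, 847, 1134 and 620.1 CPM after sham and 558, 662, 553 and 702 CPM after IRI. There the groups overlapped through iGKO sham 4 alone, and the log2 value was -0.53 ± 0.21 (edgeR adjusted p = 0.701).

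Cyp2j13, at the other end of the cluster, stood at 392, 221, 223 and 218 CPM in fl/fl sham and at 149.5, 67.5, 81.8 and 84.6 CPM in fl/fl IRI. No libraries overlapped, and fl/fl sham 1 was far above the other controls. The log2 fold change was -1.46 ± 0.30 with an edgeR adjusted p of 0.00506. In iGKO its levels were 192, 166, 238 and 163 CPM after sham and 67.9, 125, 54.0 and 109 CPM after IRI. Here too every IRI library lay below every sham library. The log2 value of -1.09 ± 0.29 had the smallest p of all members in iGKO and did not pass (edgeR adjusted p = 0.497).

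Cyp2j11 stood at 137, 89.2, 133 and 113 CPM in fl/fl sham and at 53.9, 26.7, 19.6 and 43.0 CPM in fl/fl IRI, a log2 fold change of -1.72 ± 0.28 (edgeR adjusted p = 0.00157). The groups did not overlap, and fl/fl IRI 3 was lowest. In iGKO the values were 91.6, 69.2, 127 and 66.4 CPM after sham and 47.1, 67.6, 60.0 and 58.2 CPM after IRI, which overlapped slightly. Cyp2j7 was a low-level gene with 3.95, 3.11, 4.33 and 3.70 CPM in fl/fl sham and 1.16, 1.28, 0.886 and 1.20 CPM in fl/fl IRI. Its log2 fold change was -1.73 ± 0.29 (edgeR adjusted p = 0.00205), with a narrow spread in both groups. In iGKO it stood at 3.08, 2.78, 5.25 and 2.29 CPM after sham and 3.04, 2.59, 1.77 and 3.11 CPM after IRI. Those iGKO groups overlapped, and the fl/fl IRI libraries were below all 12 others.

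The remaining Cyp2j genes, Cyp2j8, Cyp2j6 and Cyp2j9, lie together between Cyp2j11 and Cyp2j5 and were not called. Cyp2j6 had a log2 value of 0.01 ± 0.19, with fl/fl sham at 25.9 to 34.4 CPM and fl/fl IRI at 21.5 to 42.3 CPM. Cyp2j9 stood at 18.4, 21.2, 16.4 and 21.2 CPM in fl/fl sham and at 11.1, 7.98, 9.47 and 53.5 CPM in fl/fl IRI. Thus 3 fl/fl IRI libraries were below all fl/fl sham libraries and fl/fl IRI 4 was above them, and without fl/fl IRI 4 the gene was called lower. Cyp2j8, at 0.135 to 3.22 CPM over all libraries, had its highest value in the same library. Reads of this cluster may be shared: the coding sequence of Cyp2j11 was 88.9% identical to that of Cyp2j8 and 87.3% identical to that of Cyp2j7.

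**Figure D3:**
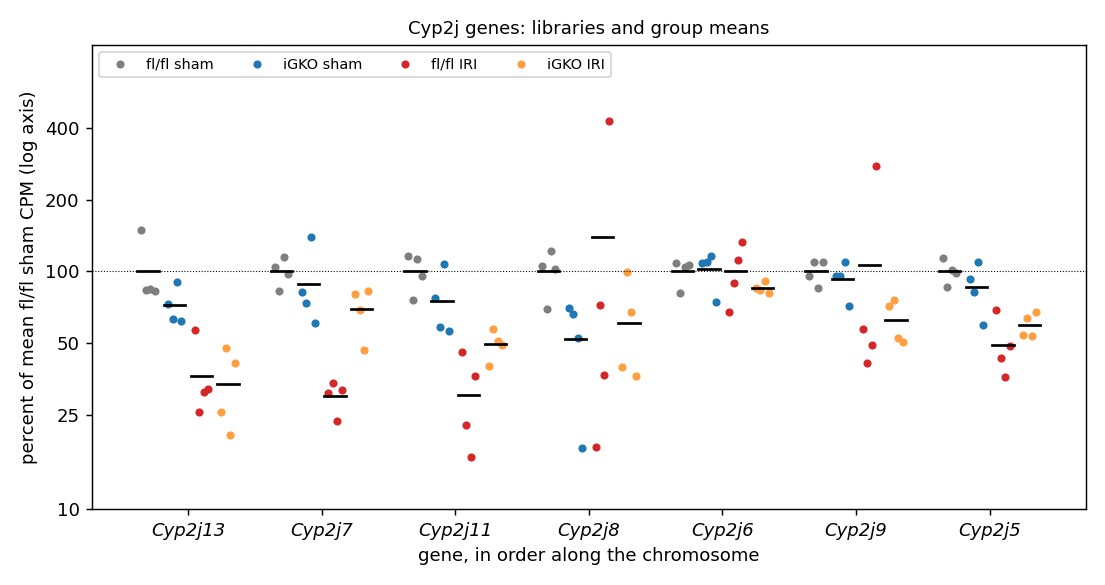
Level of the 7 Cyp2j members in order along the chromosome (horizontal axis), as a percentage of the mean fl/fl sham CPM on a log axis, with a point for each library and a bar for each group mean. The means of fl/fl IRI are 36.5% for Cyp2j13, 30.0% for Cyp2j7, 30.3% for Cyp2j11 and 49.2% for Cyp2j5, while Cyp2j6 stays at 100.3% and fl/fl IRI 4 lifts Cyp2j8 and Cyp2j9.

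Cyp2d genes encode drug- and steroid-oxidising enzymes and are a second cluster, on chromosome 15. Of the 4 members, Cyp2d26 and Cyp2d12 fell. Cyp2d26 stood at 72.8, 97.2, 94.7 and 84.6 CPM in fl/fl sham and at 43.8, 11.7, 12.3 and 35.8 CPM in fl/fl IRI, a log2 fold change of -1.75 ± 0.34 (edgeR adjusted p = 0.00421). The groups did not overlap, and within fl/fl IRI the libraries formed a low pair (2 and 3) and a higher pair (1 and 4). In iGKO it stood at 68.3, 79.8, 103 and 74.4 CPM after sham and 58.5, 45.4, 72.0 and 47.9 CPM after IRI, with an overlap through iGKO IRI 3 alone.

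Cyp2d12 stood at 40.7, 32.5, 95.9 and 49.6 CPM in fl/fl sham and at 31.5, 14.3, 14.0 and 33.9 CPM in fl/fl IRI. The groups touched, with fl/fl IRI 4 above fl/fl sham 2. Its log2 fold change was -1.22 ± 0.36 (edgeR adjusted p = 0.0324). The call was lost when sham libraries 3 or 4 of fl/fl were left out (adjusted p 0.141 and 0.0581), and likewise with its IRI libraries 2 or 3 (0.0835 and 0.102). In iGKO it stood at 46.6, 48.6, 86.0 and 35.4 CPM after sham and 29.3, 28.5, 33.8 and 39.5 CPM after IRI. Its coding sequence was 92.1% identical to that of Cyp2d9, so reads may be shared between them. Cyp2d9, the male-predominant testosterone hydroxylase, had a log2 value of -0.57 ± 0.33 (edgeR adjusted p = 0.254), and Cyp2d22 one of -0.19 ± 0.22 (0.594).

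Cyp2c23 and Cyp2u1 act on arachidonic and other long-chain fatty acids, the first as an epoxygenase and the second as a hydroxylase. Cyp2c23 stood at 26.2, 15.4, 23.7 and 24.9 CPM in fl/fl sham and at 17.4, 7.37, 3.07 and 6.13 CPM in fl/fl IRI. Only fl/fl IRI 1 reached the control range. The log2 fold change was -1.41 ± 0.36 (edgeR adjusted p = 0.017), and without fl/fl IRI 4 it was -1.28 with an adjusted p of 0.0518. In iGKO its levels were 19.0, 16.0, 23.9 and 20.3 CPM after sham and 19.6, 13.7, 14.8 and 19.8 CPM after IRI, which overlapped.

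Cyp2u1 stood at 24.4, 27.2, 25.4 and 23.7 CPM in fl/fl sham and at 23.1, 14.1, 9.47 and 6.64 CPM in fl/fl IRI. The control libraries were close together and fl/fl IRI 1 lay just under them. The log2 fold change was -0.92 ± 0.28 (edgeR adjusted p = 0.0362). It was not called without any 1 of the fl/fl sham libraries (adjusted p 0.066 to 0.0763) or without fl/fl IRI 2, 3 or 4 (0.0602, 0.111 and 0.0827). In iGKO it stood at 22.1, 24.8, 22.9 and 27.8 CPM after sham and 23.6, 17.3, 30.8 and 24.5 CPM after IRI, a log2 value of -0.02 ± 0.28.

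Sterol-metabolising P450 genes were represented by Cyp7b1 and Cyp27a1, which fell, and by Cyp39a1 and Cyp46a1, which were not called. Cyp7b1, an oxysterol and steroid hydroxylase, stood at 95.5, 27.3, 111 and 29.9 CPM in fl/fl sham and at 11.2, 3.65, 12.3 and 10.7 CPM in fl/fl IRI. The control libraries split into a high pair (1 and 3) and a low pair (2 and 4), both above all fl/fl IRI libraries. The log2 fold change of -2.80 ± 0.68 was the lowest of all members (edgeR adjusted p = 0.013). In iGKO the values were 22.8, 15.8, 60.6 and 42.5 CPM after sham and 3.19, 46.9, 22.7 and 41.8 CPM after IRI. These overlapped almost fully, apart from iGKO IRI 1, and the log2 value was -0.31 ± 0.64.

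Cyp27a1, the mitochondrial sterol hydroxylase, stood at 40.5, 48.0, 51.3 and 51.3 CPM in fl/fl sham and at 39.7, 24.0, 15.5 and 27.7 CPM in fl/fl IRI, a log2 fold change of -0.84 ± 0.20 (edgeR adjusted p = 0.0132). In iGKO it stood at 50.5, 56.2, 46.5 and 59.6 CPM after sham and 41.4, 36.8, 38.2 and 38.2 CPM after IRI. Neither genotype showed an overlap, and the iGKO value of -0.46 ± 0.20 did not pass (edgeR adjusted p = 0.755). Cyp39a1, an oxysterol hydroxylase, overlapped between the groups, with 5.86 ± 0.559 CPM in fl/fl sham and 5.36 ± 0.695 CPM in fl/fl IRI (SD, n = 4 each) and a log2 value of -0.13 ± 0.23. Cyp46a1, the cholesterol hydroxylase known from brain, was near the detection limit with 1.42, 1.62, 1.68 and 0.699 CPM in fl/fl sham and 1.16, 0.406, 0.886 and 0.379 CPM in fl/fl IRI, and its value of -0.93 ± 0.50 was not called (edgeR adjusted p = 0.219).

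**Figure D4:**
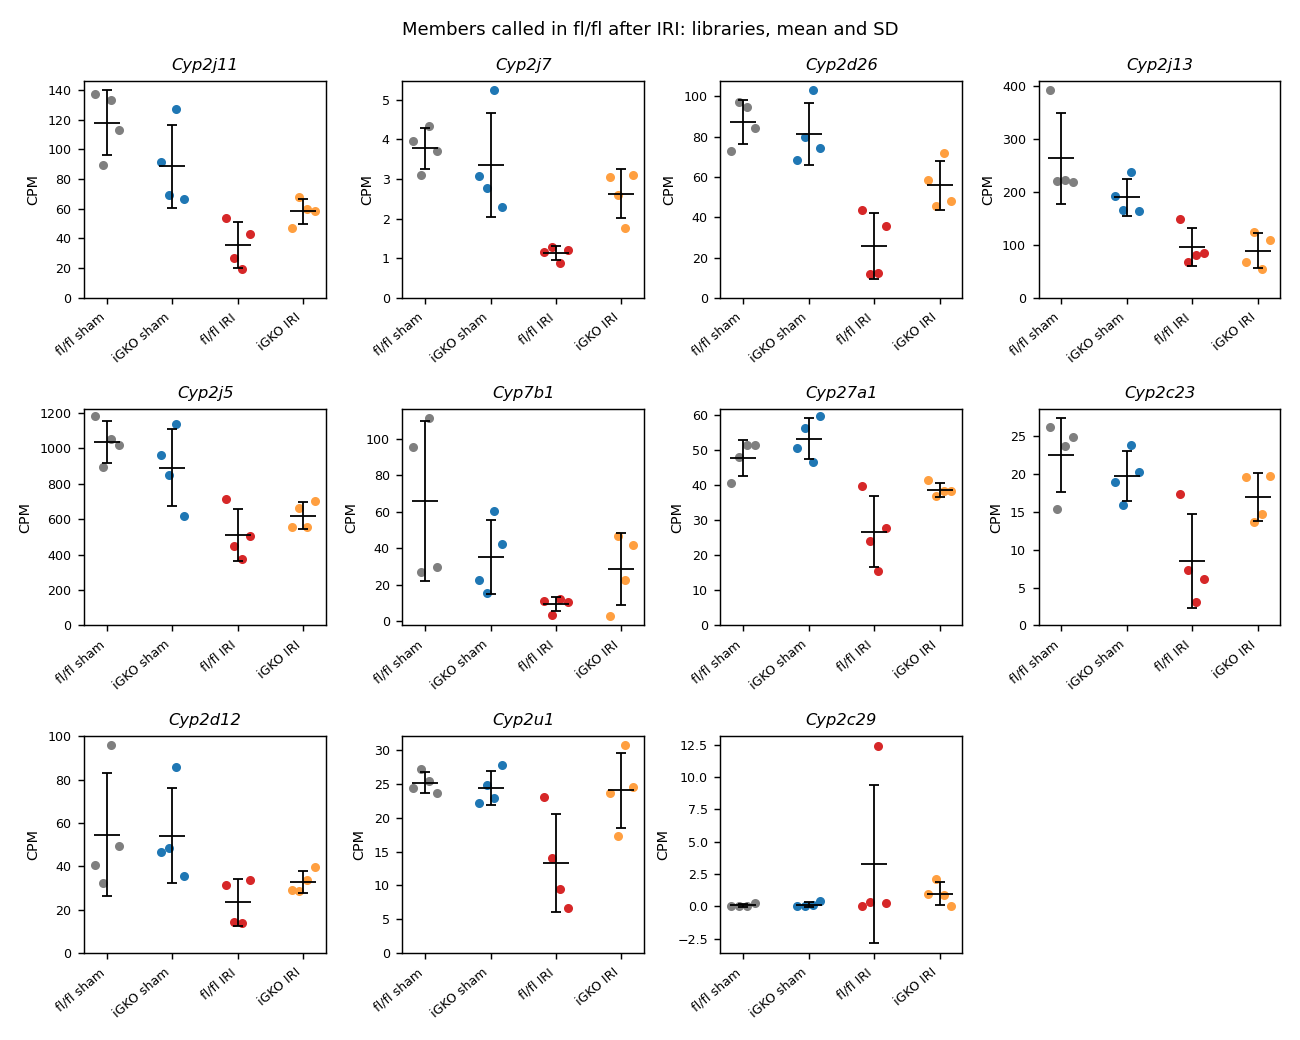
CPM of the 11 P450 genes called in fl/fl after IRI, with a panel for each gene, a point for each library, and the mean with SD in black for the 4 groups (horizontal axis). In Cyp2j7 the fl/fl IRI libraries lie at 0.886 to 1.28 CPM, below every other library, and in Cyp2c29 a single fl/fl IRI library at 12.4 CPM stands above all others.

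The other 12 family 2 members did not pass in fl/fl, of which Cyp2e1 and the 2 Cyp2a genes were the most abundant. Cyp2e1 stood at 918, 831, 812 and 667 CPM in fl/fl sham and at 617, 332, 148 and 837 CPM in fl/fl IRI. Of the fl/fl IRI libraries 3 were below all controls and fl/fl IRI 4 was within them, and the log2 value was -0.74 ± 0.37 (edgeR adjusted p = 0.185). In iGKO all IRI libraries, at 668, 494, 300.1 and 448 CPM, were below all sham libraries, at 938, 806, 1033 and 772 CPM, with a log2 value of -0.89 ± 0.37 that did not pass either (edgeR adjusted p = 0.714).

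Cyp2a4 and Cyp2a5, a steroid and a coumarin hydroxylase, had coding sequences 98.5% identical to each other, so the division of reads between them is uncertain. Their summed level was 447 ± 134 CPM in fl/fl sham, 528 ± 172 CPM in fl/fl IRI, 618 ± 273 CPM in iGKO sham and 383 ± 113 CPM in iGKO IRI (SD, n = 4 each). Cyp2a5 alone stood at 298, 133, 110.3 and 179 CPM in fl/fl sham, 227, 429.9, 208 and 305 CPM in fl/fl IRI, 662, 336, 161 and 188 CPM in iGKO sham and 211, 245, 125 and 176 CPM in iGKO IRI. The log2 values of IRI against sham were 0.70 ± 0.41 in fl/fl and -0.83 ± 0.41 in iGKO, and neither was called. The remaining family 2 members, apart from those of the Cyp2j and Cyp2d clusters, were Cyp2b10, Cyp2f2, Cyp2r1 and Cyp2s1, with log2 values in fl/fl of 2.17, -0.93, -0.16 and 0.55. Cyp2r1 is a vitamin D hydroxylase. Cyp2b10, the P450 induced by phenobarbital in liver, was highest in fl/fl IRI 3, with 75 reads there and 0 to 24 elsewhere.

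Cyp2c29, an abundant liver P450, was the only member called higher. It had 0, 0, 0 and 4 reads in fl/fl sham 1 to 4 and 0, 5, 182 and 4 reads in fl/fl IRI 1 to 4. The fl/fl IRI 3 library alone made the difference, at 12.4 CPM against 0 to 0.338 CPM in the other 3. The fitted log2 fold change was 5.37 ± 1.71 (edgeR adjusted p = 0.0432) and depends on how the model treats values of 0. Without fl/fl IRI 3 it was 1.39 with an adjusted p of 0.613, and it was also lost in 9 of the 15 fits without another single library. In iGKO there were 0, 0, 2 and 6 reads after sham and 13, 34, 14 and 0 reads after IRI.

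Some genes known from liver were high in the same library. Alb, which encodes albumin, stood at 133 CPM in fl/fl IRI 3, whereas fl/fl IRI 1, 2 and 4 had 5.95, 10.4 and 16.9 CPM. The summed level of Alb, Ahsg, Apoa1, Apoa2 and Cps1, chosen from the hepatocyte list after their values were seen, was 179 CPM in fl/fl IRI 3 and 4.73 to 40.1 CPM in the 15 other libraries. Over the whole list of 8 hepatocyte genes, which includes genes also made in kidney, the sum was 588 to 936 CPM in fl/fl sham, 504 to 678 CPM in fl/fl IRI, 430.2 to 970.3 CPM in iGKO sham and 558 to 1042 CPM in iGKO IRI. None of the 8 was called in fl/fl. The other listed genes, Apob, Ttr and Serpina1a, did not stand out in fl/fl IRI 3. Apob stood there at 454 CPM, against 431, 588 and 571 CPM in fl/fl IRI 1, 2 and 4. Ttr stood there at 29.0 CPM, against 61.3, 44.7 and 33.0 CPM. Serpina1a stood there at 16.8 CPM, against 4.72, 1.42 and 16.0 CPM. Among the Cyp genes under the read rule, Cyp2a12, Cyp2c50, Cyp2c70, Cyp3a11 and Cyp17a1 reached 10 reads in fl/fl IRI 3 and in no other library. The part of liver RNA in these values was not tested. Leaving out fl/fl IRI 3 kept 8 of the 10 lower calls, without Cyp2d12 and Cyp2u1.

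**Figure D5:**
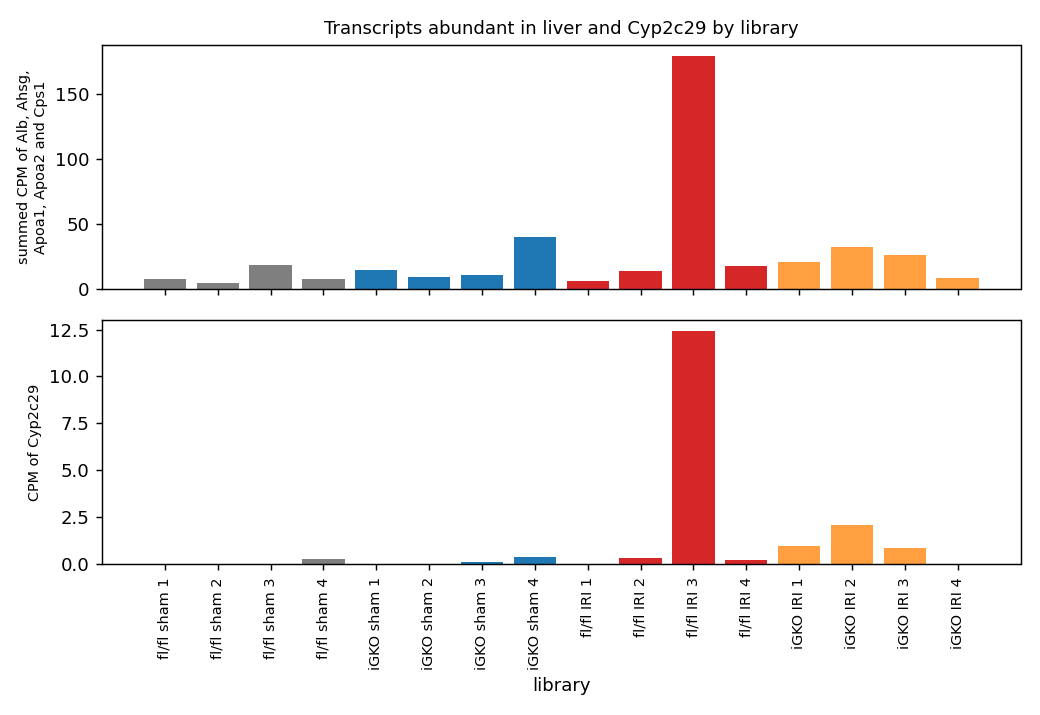
Summed CPM of Alb, Ahsg, Apoa1, Apoa2 and Cps1 (upper panel) and CPM of Cyp2c29 (lower panel) as bars from 0 for each of the 16 libraries, coloured by group. Both are highest in fl/fl IRI 3, at 179 and 12.4 CPM.

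Family 4 holds the fatty acid omega-hydroxylases, and none of its 11 members was called in fl/fl. Their log2 values ran from -0.95 to 1.15 with a median of 0.07, 6 above 0 and 5 below. Cyp4b1, one of the 3 leading members per length, stood at 2017, 2365, 1364 and 1041 CPM in fl/fl sham and at 1838, 1737, 691 and 1898 CPM in fl/fl IRI. Apart from fl/fl IRI 3, the lowest, the fl/fl IRI libraries lay within the range of fl/fl sham, and the log2 value was -0.14 ± 0.31 (edgeR adjusted p = 0.798).

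Cyp4f16 was the member of family 4 with the smallest p. It stood at 8.45, 9.01, 6.99 and 8.73 CPM in fl/fl sham and at 11.1, 13.0, 18.6 and 8.78 CPM in fl/fl IRI. The log2 value of 0.63 ± 0.21 missed the threshold (edgeR adjusted p = 0.0521), and fl/fl IRI 4 lay within the control range. In iGKO its levels were 6.91, 9.03, 7.60 and 9.50 CPM after sham and 11.6, 11.4, 11.2 and 14.3 CPM after IRI, without overlap and with a log2 value of 0.55 ± 0.21 that did not pass (edgeR adjusted p = 0.682). Cyp4f17 had 30.2 ± 19.2 CPM in fl/fl IRI and 15.6 ± 4.22 CPM in fl/fl sham (SD, n = 4 each), with fl/fl IRI 4 at 58.9 CPM, the library that was also highest in Cyp2j8 and Cyp2j9. Cyp4f18, a leukotriene hydroxylase of neutrophils, had 4.69 ± 2.45 against 2.09 ± 0.900 CPM (edgeR adjusted p = 0.104). Cyp4v3 was the one member whose fl/fl IRI libraries, at 5.74 to 7.96 CPM, all lay above the fl/fl sham libraries, at 3.87 to 5.10 CPM, as in 9.65% of all genes, and its adjusted p was 0.116. None of these family 4 genes passed in fl/fl in the main edgeR fit. DESeq2 called Cyp4f16 and Cyp4f17 higher, and 6 of 23 alternatives called Cyp4f16 in fl/fl. Of the neutrophil markers 6 of 6 were called higher there, and their sum was 5.38 to 11.5 CPM in fl/fl sham, 24.2 to 208 CPM in fl/fl IRI, 2.16 to 17.6 CPM in iGKO sham and 10.5 to 33.6 CPM in iGKO IRI. Within fl/fl IRI the neutrophil sum was highest in fl/fl IRI 3, as Cyp4f16 and Cyp4f18 were, while Cyp4f17 and Cyp4v3 were highest in fl/fl IRI 4. The part of neutrophils in these values was not tested.

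Cyp4a genes encode omega-hydroxylases, and Cyp4a12a is the main maker of hydroxyeicosatetraenoic acid in the male mouse kidney. Cyp4a12a and Cyp4a12b were 98.5% identical in coding sequence and Cyp4a31 and Cyp4a32 were 96.0% identical, so single levels are uncertain. Cyp4a10, which was left out by name, was 96.6% identical to Cyp4a31 and 97.2% identical to Cyp4a32. Reads may be shared with Cyp4a10 too, so the sum of the members is also uncertain. The 4 Cyp4a members together had 545 ± 55.3 CPM in fl/fl sham, 397 ± 164 CPM in fl/fl IRI, 597 ± 141 CPM in iGKO sham and 439 ± 95.2 CPM in iGKO IRI (SD, n = 4 each). Cyp4a12b stood at 14.9, 30.3, 22.6 and 18.5 CPM in fl/fl sham and at 20.6, 94.4, 29.9 and 15.7 CPM in fl/fl IRI, with fl/fl IRI 2 far above the rest. Cyp4f13, Cyp4f14, Cyp4a31, Cyp4a32 and Cyp4a12a had log2 values of -0.27, -0.95, -0.63, 0.07 and -0.14.

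The small families 1, 3, 20 and 26 held no call in fl/fl. Cyp1b1, which oxidises oestrogens and fatty acids, stood at 43.7, 38.3, 53.8 and 53.8 CPM in fl/fl sham and at 31.4, 56.6, 46.3 and 91.2 CPM in fl/fl IRI (log2 0.25 ± 0.32). Cyp3a13, the only drug-oxidising Cyp3a gene among the members, stood at 1.26, 0.519, 0.419 and 1.47 CPM in fl/fl sham and at 1.16, 0.473, 3.54 and 4.74 CPM in fl/fl IRI (log2 1.44 ± 0.60, edgeR adjusted p = 0.114). The groups overlapped in both genes, and fl/fl IRI 4 was the highest library in both. Cyp20a1, a P450 with no settled substrate, stood at 16.0, 16.5, 15.0 and 19.2 CPM in fl/fl sham and at 19.9, 22.6, 28.8 and 15.2 CPM in fl/fl IRI (log2 0.37 ± 0.19, edgeR adjusted p = 0.183). In iGKO the IRI libraries of Cyp20a1, at 19.7, 23.5, 21.0 and 21.1 CPM, all lay above the sham libraries, at 14.0, 17.3, 18.6 and 12.3 CPM. Of the retinoic acid hydroxylases, Cyp26b1 stood at 3.95, 7.78, 4.05 and 5.17 CPM in fl/fl sham and at 4.79, 6.15, 5.38 and 1.90 CPM in fl/fl IRI. These overlapped, with a log2 value of -0.21 ± 0.38, and Cyp26c1 had one of 0.10 ± 0.38. Cyp1a1, the classical target of the aryl hydrocarbon receptor, and Cyp26a1 were untested, at 0.0617 to 0.886 CPM and 0.0619 to 1.10 CPM over all libraries.

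Markers of the proximal tubule fell in fl/fl beside the 10 P450 genes that fell. Of its 20 listed genes 14 were called lower and none higher, with a median log2 fold change of -1.25, and 2 of 5 genes of its S3 segment were called lower. The summed level of the 20 genes was 35564 to 39948 CPM in fl/fl sham, 11409 to 28788 CPM in fl/fl IRI, 31047 to 39328 CPM in iGKO sham and 23202 to 29540 CPM in iGKO IRI. The fl/fl IRI library with the lowest sum was fl/fl IRI 3 and that with the highest was fl/fl IRI 1. The sum of the Cyp2j genes had the same lowest and highest libraries (521 and 953 CPM). The sum of all members was also lowest in fl/fl IRI 3 (2203 CPM). It was highest in fl/fl IRI 4 (4870 CPM), beside 4840 CPM in fl/fl IRI 1. All 5 listed genes of injured tubule were called higher in fl/fl. Of the other lists, 2 of 5 thick ascending limb genes and 2 of 6 endothelial genes were called lower, 1 of 8 macrophage genes was called higher, and none of 8 fibroblast, 6 fat or 3 tested adrenal genes was called. In bulk tissue, fewer cells of a type and less RNA per cell cannot be told apart, and the part of the tubule markers in the P450 values was not tested.

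IRI against sham in iGKO mice gave the response of mice with the deletion. No member was called in either direction, and no gene of the 17972 tested was (0% higher and 0% lower). Of the members 10 had an unadjusted p under 0.05, of which 7 were lower and 3 higher, and DESeq2 also called none of them. Over all genes 693 higher and 452 lower had an unadjusted p under 0.05, and DESeq2 called 38 and 5. The median log2 value of the 41 was -0.26, with 14 above 0 and 27 below, against a median of -0.022 over all genes. In 5 members all IRI libraries were below all sham libraries (Cyp2e1, Cyp2j13, Cyp4a12a, Cyp26b1 and Cyp27a1), beside 2.76% of all genes, and in 2 members (Cyp4f16 and Cyp20a1) they were above, beside 2.24%. Cyp4a12a stood at 56.8, 55.5, 78.6 and 67.2 CPM in iGKO sham and at 44.8, 32.9, 7.14 and 22.2 CPM in iGKO IRI, a log2 value of -1.27 ± 0.43 (edgeR adjusted p = 0.63). The 10 members that fell in fl/fl had log2 values between -1.09 and -0.02 in iGKO, with a median of -0.49, beside a median of -1.43 in fl/fl, where they were chosen. The 20 proximal tubule markers had a median of -0.42 in iGKO and none was called.

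Genotype made no called difference after sham. No member passed and no gene of all tested did (0% in both directions), 2 members had an unadjusted p under 0.05, and the groups overlapped in every member, while 1.05% of all genes were higher and 0.874% lower without overlap. DESeq2 called no member and no gene either, and 107 genes higher and 103 lower had an unadjusted p under 0.05. Cyp26b1, which breaks down retinoic acid, had the smallest p. It stood at 7.06, 9.34, 20.5 and 9.37 CPM in iGKO sham and at 3.95, 7.78, 4.05 and 5.17 CPM in fl/fl sham, a log2 difference of 1.14 ± 0.38 (unadjusted p = 0.00777, edgeR adjusted p = 0.9999). Cyp2a5 followed with 0.90 ± 0.41, mostly through iGKO sham 1 at 662 CPM, and Cyp2j13 with -0.47 ± 0.29.

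After IRI, again no member passed between the genotypes, where 0.178% of all genes were called higher in iGKO and 0.673% lower. An unadjusted p under 0.05 was reached by 13 members, 8 higher and 5 lower, and over all genes by 1606 higher and 1834 lower. DESeq2 called Cyp2d26, Cyp2j7 and Cyp2u1 higher in iGKO and Cyp3a13 and Cyp4a12b lower, with 408 genes higher and 534 lower in all. The smallest edgeR p was that of Cyp2j7, whose 4 iGKO IRI libraries, at 1.77 to 3.11 CPM, all lay above the 4 fl/fl IRI libraries, at 0.886 to 1.28 CPM. Its log2 difference was 1.20 ± 0.29 (edgeR adjusted p = 0.0615). Cyp4a12b, at 19.9, 11.8, 9.04 and 11.4 CPM in iGKO IRI, had a difference of -1.63 ± 0.46 (edgeR adjusted p = 0.0914), with fl/fl IRI 2 at 94.4 CPM as the highest library. Cyp2d26 had a difference of 1.11 ± 0.34 (edgeR adjusted p = 0.108) without overlap. In all, 3 members were higher without overlap (Cyp2j7, Cyp2d26 and Cyp2d22), beside 2.48% of all genes, and 1 was lower (Cyp4a12a), beside 3.04%. The calls depended on the method and on single libraries. The fl/fl IRI library with the lowest injury markers was fl/fl IRI 1. Without it, 6 members were called higher in iGKO (Cyp2c23, Cyp2d26, Cyp2j11, Cyp2j7, Cyp2u1 and Cyp27a1) and 2 lower (Cyp3a13 and Cyp4a12b). That fit called 1282 genes higher and 1213 lower in all. Without iGKO sham 4, Cyp2j7 alone was called higher, with 59 genes higher and 176 lower in all. Of the 5 injured tubule genes 3 were called lower in iGKO after IRI, with a sum of 118 to 200.1 CPM against 205 to 2705 CPM in fl/fl, and their part in the P450 values was not tested.

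The interaction, the response of iGKO minus that of fl/fl, tested whether the genotypes responded differently. No member and no gene was called (0% in both directions), 8 members had an unadjusted p under 0.05 (6 above 0 and 2 below), and DESeq2 called no member. Over all genes 863 above 0 and 1170 below had an unadjusted p under 0.05, and DESeq2 called 31 and 81. The smallest p was that of Cyp2j7, with an interaction of 1.37 ± 0.40 on the log2 scale (edgeR adjusted p = 0.271). Cyp2j11 followed with 1.11 ± 0.39 (0.323) and Cyp7b1 with 2.49 ± 0.92 (0.354). Without fl/fl IRI 1, the edgeR test called 4 members with a positive interaction, Cyp2c23, Cyp2d26, Cyp2j11 and Cyp2u1, and over all genes it called 381 above 0 and 395 below. A lower call in fl/fl and none in iGKO was therefore not shown to be a difference between the genotypes with all libraries in the fit.

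Genes that serve the P450 enzymes are given here for fl/fl after IRI, where 8.46% of all genes were called higher and 7.01% lower. Of 9 tested electron donors and membrane partners 1 fell, Cyb5b, a mitochondrial outer membrane cytochrome b5, with a log2 fold change of -0.78 ± 0.19 (edgeR adjusted p = 0.0145). Por, the P450 oxidoreductase, had a value of -0.15 ± 0.23. None of 8 haem synthesis genes was called, with Alas1, the first enzyme, at 0.52 ± 0.28 and Ppox at -0.51 ± 0.21. Of 16 tested nuclear receptors and other transcription factors known to act on P450 genes 2 were called lower and none higher. Among them Esr1, the oestrogen receptor, fell by 1.75 ± 0.34 on the log2 scale (edgeR adjusted p = 0.00433). Ppara, the receptor of fatty acids, and Nr1h4, the bile acid receptor, had values of -0.49 ± 0.18 and -0.38 ± 0.15 that did not pass.

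None of 3 tested epoxide hydrolases, which remove epoxides made by P450 enzymes, was called, and Ephx2 had a value of -0.59 ± 0.26 (edgeR adjusted p = 0.136). Of 10 genes of eicosanoid supply and the prostanoid branch, Ptgs2, the inducible cyclooxygenase, rose by 3.03 ± 0.54 (edgeR adjusted p = 0.00252) and Ptgds, a prostaglandin D synthase, fell by 1.28 ± 0.41 (0.0449) on the log2 scale. In iGKO no gene of these 5 lists was called after IRI.

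Of the 43 members 34 had at least 10 reads in every library, and no member reached the read rule through a single group. Cyp1a1 and Cyp2c29 reached it through IRI libraries alone, so Cyp2c29, the member called higher after IRI, was admitted by the libraries in which it was high. Just inside the read rule, with 10 reads in exactly 4 libraries, were Cyp1a1 (1 to 13 reads, median 6.5) and Cyp2c29 (0 to 182 reads, median 3.0). Just outside it were Cyp2d10, with 10 reads in 3 libraries (1 to 27 reads over all), and Cyp2c69, with 10 reads in 2 libraries (0 to 14). Among the 52 Cyp genes under the rule, 11 had no read in any library. Cyp4f15 reached 68 reads in iGKO IRI 3 and 0 to 8 elsewhere.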

How the data were processed

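Gene counts of 16 kidney cortex libraries (rRNA-depleted, stranded total RNA) were used as deposited: the authors' table holds whole-number read counts per Ensembl gene, not normalized. Per the submitters' processing notes the tools were cutadapt 1.16, STAR 2.7.9a, featureCounts 1.6.3 and DESeq2 1.36.0. Their settings, the annotation release and the strand setting are not given in the sources used here. Symbols, gene types and exon lengths came from GENCODE M21 by gene ID. Promoter sequences came from RefSeq on GRCm38.p6, which matched 32 members, and the notes name another build, so no other coordinates are given.

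Total counts were 12704273 to 18816343 per library, and 17972 genes passed edgeR's filterByExpr. One coefficient per group was fitted over all 16 libraries with edgeR 4.0.16 in R 4.3.3 (TMM scaling, quasi-likelihood test, two-sided, 5 contrasts, Benjamini-Hochberg threshold 0.05). The standard error is the log2 fold change over the root of F. The procedure was tested on simulated data in which no library stood apart from its group, unlike the data here. CPM values are TMM-scaled. DESeq2 1.42.0, other scaling, no filter, other member rules, the compared groups alone, a replicate block and leaving out libraries were the alternatives, and 2 settings that leave out a pair of libraries were added after the data were seen.

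The members and gene lists were chosen with earlier results of these data known. Library values are given for called members (up to 12 per direction), for the 3 members with the smallest p in each genotype contrast and the interaction, and for the member with the smallest p in each family without a call. Cyp2e1, Cyp2j9, Cyp4a12a, Cyp4b1, Por and the genes under the read rule were named in addition, after their values were seen. Levels of some other members were also given outside this rule, among them Cyp2b10, Cyp2j6, Cyp2j8, Cyp4f17, Cyp4f18 and Cyp4v3. A result on 1 listed gene is not reported here. Deviations of same-numbered libraries from their group means had 24 correlations from -0.335 to 0.399, with a median of 0.015 and 6 over 0.1. For 7 libraries the best match in another group had the same number. Replicate numbers were not used as pairs in the main fit, and the replicate block is among the alternatives.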

Additional observations from a re-analysis of the deposited data

Results flagged for a closer look

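The sets looked at were 172 (43 members in 4 groups of 4 libraries). By Dixon's test 1 library lay far from the other 3 in 15 of them (8.72%). A rate of about 5.0% holds for independent, normally distributed values. Here CPM was not log-transformed, some levels lay near 0 and the sets share libraries, so the 2 rates cannot be compared as a test. Of the 15, 4 were fl/fl IRI 4: Cyp2j8 at 3.22 CPM (next 0.541), Cyp2j9 at 53.5 CPM (next 11.1), Cyp4f17 at 58.9 CPM (next 21.7) and Cyp26c1 at 2.53 CPM (next 1.78). The fl/fl IRI 3 library was highest for Cyp2c29, at 12.4 CPM (next 0.338), and lowest for Cyp4b1, at 691 CPM (next 1737). Cyp2f2, a P450 known from lung, was highest in fl/fl IRI 2 at 1.49 CPM (next 0.273).

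Among fl/fl sham libraries, replicate 1 was highest for Cyp2a4 at 347 CPM (next 245) and for Cyp2j13 at 392 CPM (next 223). Replicate 2 was lowest for Cyp2j6 at 25.9 CPM (next 33.1). Replicate 4 was lowest for Cyp2f2 at 0.629 CPM (next 1.04) and had the only reads of Cyp2c29, at 0.279 CPM. In iGKO, sham 4 was lowest for Cyp4a31 at 308 CPM (next 568), IRI 4 was highest for Cyp4f16 at 14.3 CPM (next 11.6), and IRI 2 was lowest for Cyp26b1 at 3.76 CPM (next 6.46).

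For Cyp2a5 every fl/fl IRI library was above the fl/fl sham mean and every iGKO IRI library was below the iGKO sham mean, a mean that includes iGKO sham 1 at 662 CPM beside 336, 161 and 188 CPM. Neither response was called (edgeR adjusted p = 0.258 and 0.795), and leaving out 1 library moved the iGKO value between -1.06 and -0.27. The interaction was -1.53 on the log2 scale and did not pass (edgeR adjusted p = 0.36).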

How the results depend on the processing

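In fl/fl, 10 members were called lower also with RLE scaling, DESeq2, no filter and the replicate block. With the compared groups alone 6 were (Cyp27a1, Cyp2c23, Cyp2d12 and Cyp2u1 were lost), without fl/fl IRI 3 and 4 the number was 4, and leaving out 1 library gave 8 to 10. The number called higher was 2 with RLE scaling (Cyp2c29 and Cyp4f16) and 2 with DESeq2 (Cyp4f16 and Cyp4f17, with Cyp2c29 lost). It was 0 with the compared groups alone, 5 without fl/fl IRI 1 and iGKO sham 4, and 0 without fl/fl IRI 3 and 4. Under either stricter member rule it was 0, and without 1 library it was 0 to 4. It was 1 with the replicate block (Cyp4f17 in place of Cyp2c29), and the block changed no other member count.

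Between genotypes after IRI, DESeq2 called 3 members higher and 2 lower, no filter called 1 lower, leaving out fl/fl IRI 1 and iGKO sham 4 gave 7 and 2, and leaving out 1 library gave 0 to 6 and 0 to 2. Positive interactions numbered 4 without that pair and 0 to 4 without 1 library. In iGKO after IRI and between genotypes after sham, 0 members were called under every alternative run. The cause of these changes was not tested.

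Of the named members' log2 values for IRI against sham, those that changed sign were not called in that comparison with all libraries. In fl/fl, leaving out 1 library gave Cyp1b1 -0.08 to 0.45 and Cyp26b1 -0.39 to 0.05, and leaving out fl/fl IRI 3 and 4 gave -0.10 for Cyp1b1, 0.06 for Cyp26b1 and -0.16 for Cyp3a13. In iGKO, leaving out 1 library gave Cyp1b1 -0.18 to 0.35, Cyp2u1 -0.16 to 0.11, Cyp3a13 -0.41 to 0.24, Cyp46a1 -0.47 to 0.42 and Cyp7b1 -0.65 to 0.08. Cyp2u1 was 0.00 with RLE scaling, 0.00 with DESeq2 and 0.06 without fl/fl IRI 1 and iGKO sham 4, where Cyp46a1 was 0.42.

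Over all genes, fl/fl calls were 1520 higher and 1259 lower, and 916 and 610 with the compared groups alone. They were 301 and 84 without fl/fl IRI 3 and 4, and 2925 and 2583 without fl/fl IRI 1 and iGKO sham 4. Genotype calls after IRI were 32 and 121, 0 and 0 with the block or the compared groups alone, 408 and 534 with DESeq2, 109 and 243 with no filter, 29 and 79 with RLE scaling, and 1843 and 1973 without that pair.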
